A study of Homo sapiens with 17 samples.

Results

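The 10 genes followed here, ASNS, TRIB3, CHAC1, ATF5, PSAT1, PHGDH, SHMT2, INHBE, SLC3A2 and VLDLR, are known targets of the transcription factor ATF4 or close markers of its activity, and several of them serve amino acid supply. They were taken by gene symbol from the deposited table, in which all 10 were present among 16884 protein-coding genes. They were chosen by their known role together with measured FPKM and counts of all 3 groups, since the definition of the set states that ATF5 rises and INHBE falls in these data, and so the values of the 10 genes in all 3 comparisons are given below as a description and without p-values. Cells meet shortage of amino acids, misfolded protein or mitochondrial stress by phosphorylating the initiation factor eIF2, which slows translation in general while the ATF4 messenger is translated more. ATF4 then binds composite sites in its targets and raises transporters, enzymes of serine and asparagine synthesis, tRNA synthetases and its own feedback regulators. Because ATF4 is set largely at translation and through partner proteins, its mRNA level alone does not give its activity.

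The cells were BEAS-2B, an immortalised line from human bronchial epithelium, labelled as wild type and grown in BEGM, a bronchial epithelial growth medium. They were given acetaldehyde, the reactive aldehyde of tobacco smoke and of ethanol oxidation, at 0 mM (Control, 6 libraries), 10 mM (AA_L, 6 libraries) or 16 mM (AA_H, 5 libraries) for 24 h, and polyadenylated RNA was sequenced. All groups were the same line in the same medium, and no genetic change was made in any of them. Whether the libraries within a group stem from different culture dishes is not stated in the labels, and p-values therefore measure the spread between these libraries, which may be technical.

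Total expected counts ran from 15952673 to 18809242 per library. The 10 mM library 1 stood apart from the other 16: its TMM scaling factor was 0.559, against 0.967 to 1.11 in the rest, and its FPKM summed to 977403, against 506795 to 554077. The remaining 16 libraries fell into 2 sets of close libraries within each group, and these sets were assigned the same numbers across the groups. Over 12564 genes the difference between the 2 sets correlated by 0.376 for control and 10 mM. The correlation was 0.301 for control and 16 mM and 0.607 for 10 and 16 mM. These correlations use the assigned numbers, so they describe the match of the sets across groups and do not test it. Set 1 held Control 1 to 3, 10 mM 2 to 4 and 16 mM 1 to 3, and set 2 held Control 4 to 6, 10 mM 5 and 6 and 16 mM 4 and 5. The labels name no batch, so these sets are a description of the libraries, and for the 10 genes values within each set are given beside the pooled ones. Of 7 epithelial markers, KRT5, KRT19, EPCAM and CDH1 lay under 1 FPKM in every library, while the keratins KRT8, KRT17 and KRT18 averaged 306, 48.4 and 377 FPKM in the control group. The 3 endothelial markers summed to at most 0.07 FPKM in any library, and the leukocyte markers found in the table to at most 1.37 FPKM. The summed level of 6 fibroblast markers spanned 12.7 to 22.7 FPKM over the control libraries, 1.3 to 16.1 over the 10 mM group and 4.41 to 9.64 over the 16 mM group. COL1A2, COL3A1, DCN and LUM lay under 1 FPKM throughout. PDGFRB averaged 12.7 FPKM in control, 5.58 at 10 mM and 3.5 at 16 mM, whereas COL1A1 averaged 3.62, 5.68 and 3.48. In the 10 mM library 1 both were at 0.38 FPKM. The part of these markers in the results was not tested.

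RefSeq promoter windows (GRCh38.p14, 250 bases before to 50 bases after an annotated start) were at hand for 8 of the 10 genes, 15 windows in all, but not for SHMT2 and INHBE. They were searched on both strands for TGATGNAA, the letters shared by composite sites that ATF4 binds together with C/EBP proteins, and for TGACGTCA, the full cyclic AMP response element; neither motif contains the other. TGATGNAA occurred in 3.62% of all 35116 windows and in a window of 4.46% of all 27305 genes, and in 3 of the 8 genes with windows: ASNS, CHAC1 and SLC3A2. The SLC3A2 match TTACATCA, the motif on the opposite strand, lay 37 to 44 bases after the start. TGACGTCA occurred in 1.85% of all windows and in none of the 15. The 250 bases before the start are printed for the ASNS and CHAC1 windows, whose matches are in capitals, and for ATF5, the gene that was higher at both concentrations and whose window held neither motif. ASNS lies on the minus strand at chr7:97872409-97872658, CHAC1 on the plus strand at chr15:40953221-40953470 and ATF5 on the plus strand at chr19:49928656-49928905, each written 5′ to 3′ along the gene.
ASNS: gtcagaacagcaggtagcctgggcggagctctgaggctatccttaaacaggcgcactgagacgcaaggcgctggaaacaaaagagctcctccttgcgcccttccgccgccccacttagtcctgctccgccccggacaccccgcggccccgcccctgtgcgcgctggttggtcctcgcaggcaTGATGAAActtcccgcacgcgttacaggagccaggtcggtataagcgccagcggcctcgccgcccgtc
CHAC1: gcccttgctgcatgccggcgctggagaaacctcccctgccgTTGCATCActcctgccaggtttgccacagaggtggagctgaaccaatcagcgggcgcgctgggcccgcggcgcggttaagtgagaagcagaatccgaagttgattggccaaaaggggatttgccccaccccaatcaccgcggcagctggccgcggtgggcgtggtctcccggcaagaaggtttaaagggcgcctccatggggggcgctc
ATF5: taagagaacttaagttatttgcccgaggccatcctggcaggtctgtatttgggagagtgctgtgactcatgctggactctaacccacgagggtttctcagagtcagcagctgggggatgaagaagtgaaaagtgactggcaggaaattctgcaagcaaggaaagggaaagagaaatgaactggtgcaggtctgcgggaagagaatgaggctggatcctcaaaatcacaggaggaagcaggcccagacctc
The ASNS match TGATGAAA lay 68 to 61 bases before the start, and the CHAC1 match TTGCATCA, the motif on the opposite strand, 209 to 202 bases before it. These are matches of letters and not measured binding.

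In control cells the 10 genes spanned a wide range of expression. Mean FPKM, a level per transcript length, was 387 for SLC3A2, 362 for PHGDH, 356 for PSAT1, 253 for ASNS, 246 for SHMT2, 139 for TRIB3, 54.3 for CHAC1, 7.18 for VLDLR, 6.89 for INHBE and 4.74 for ATF5. Neighbours in this order overlapped in their ranges over the 6 libraries, except TRIB3 with CHAC1 and CHAC1 with VLDLR. SLC3A2, PHGDH and PSAT1 thus stood above 98.8%, 98.7% and 98.6% of the 12564 genes tested, whereas ATF5 stood above 23.5%. At 16 mM the order changed in its lower part, with ATF5 at 11.2 FPKM above VLDLR at 4.16 and INHBE at 0.94, and with ASNS at 229 above PSAT1 at 207. In that group only CHAC1 and ATF5 overlapped among neighbours.

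**Figure D1:**
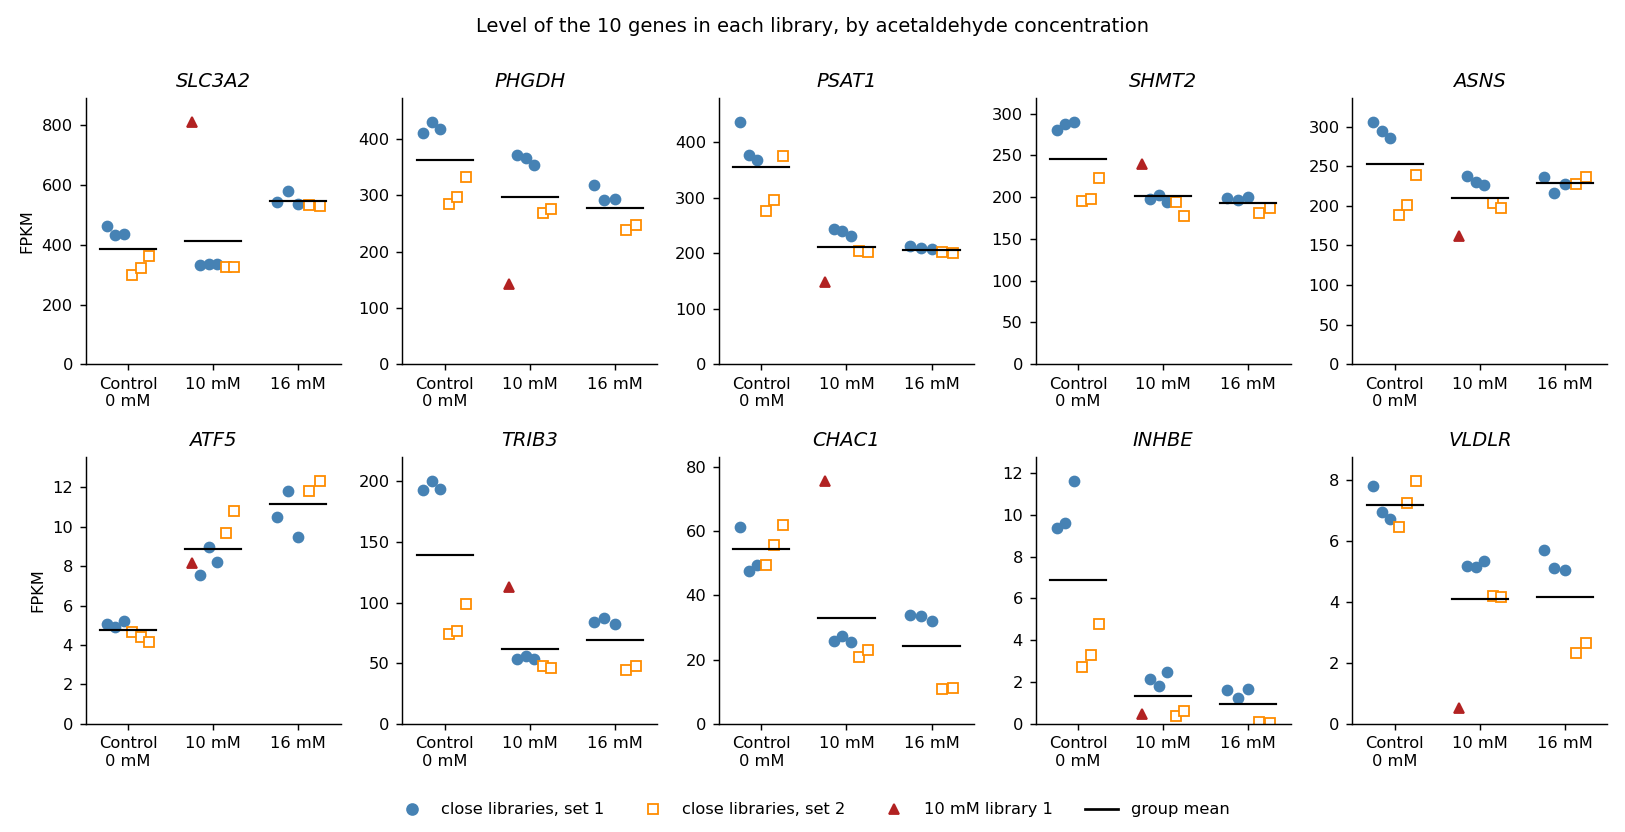
FPKM (vertical axes, each from 0) of the 10 genes in every library, by acetaldehyde concentration. Points are libraries, marked by set of close libraries, the triangle is 10 mM library 1 and the line is the group mean; ATF5 lies at 4.17 to 5.20 in control and at 7.55 or above in every exposed library, and INHBE lies at 2.71 or above in control and at 2.46 or below in every exposed library.

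A gene was called changed at an adjusted p under 0.05 in the quasi-likelihood test of edgeR, adjusted by the Benjamini-Hochberg method over all 12564 genes tested, and all 10 genes passed the filter on low counts. At 10 mM against control 3 of the 10 were called, ATF5 upward and PSAT1 and INHBE downward, where 18.7% of all genes tested were called. At 16 mM against control 4 of the 10 were called, ATF5 upward and PHGDH, PSAT1 and INHBE downward, where 35.3% of all genes were called. Without the 10 mM library 1 these counts became 8 of 10 (background 45.2%) and 9 of 10 (background 65.9%). With the close libraries of each set summed, which leaves 4 residual degrees of freedom, edgeR called 0 of the 10 and 0 of 13525 genes in every comparison. At an unadjusted p under 0.05 in that edgeR fit there were 1 and 2 of the 10 at 10 and 16 mM against control. The 10 mM library 1 stayed in it as its own unit, and no summed fit without that library was run. Nothing is read from these counts of calls, or from the call of any single gene of the 10 given below, because the choice of the genes used these contrasts. The median log2 change of the 10 genes was -0.24 at 10 mM and -0.56 at 16 mM, beside 0.05 and 0.00 over all genes tested. In bulk RNA fewer cells of a type and less RNA per cell cannot be told apart.

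ATF5 and INHBE, the 2 genes that the choice of the set names, moved in opposite directions. ATF5 (gene ID 22809, chr19:49928906-49933935) encodes a basic leucine zipper factor that, like ATF4, is controlled in part through upstream reading frames in its messenger. Control libraries had 4.17 FPKM at the lowest, 4.79 in the median and 5.20 at the highest, in 10 mM libraries 1 to 6 it was 8.17, 7.55, 8.96, 8.20, 9.66 and 10.8, and at 16 mM it was 10.5, 11.8, 9.48, 11.8 and 12.3. Both exposed groups lay wholly above control, and the 2 exposed groups overlapped each other. The log2 change was 1.09 ± 0.16 (SE) at 10 mM and 1.26 ± 0.17 at 16 mM, and without the 10 mM library 1 it was 0.94 ± 0.11 and 1.26 ± 0.11. In set 1 the mean rose from 5.06 to 8.24 and 10.6 FPKM and in set 2 from 4.41 to 10.2 and 12.0 FPKM across the 3 concentrations.

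INHBE (gene ID 83729, chr12:57455307-57459148) encodes the inhibin beta E subunit of the transforming growth factor family, known chiefly as a liver product and as a marker of ATF4 activity. Control libraries 1 to 6 had 9.36, 9.60, 11.6, 2.71, 3.29 and 4.78 FPKM, with libraries 1 to 3 far above libraries 4 to 6. In 10 mM libraries 1 to 6 it was 0.49, 2.13, 1.79, 2.46, 0.37 and 0.63, and at 16 mM it was 1.63, 1.25, 1.68, 0.11 and 0.03. The lowest 16 mM values rest on 4 and 1 expected counts, so no fold is given for that group within set 2. No exposed library reached the lowest control. The log2 change was -2.30 ± 0.61 at 10 mM and -2.87 ± 0.68 at 16 mM, and -2.21 ± 0.57 and -2.86 ± 0.60 without the 10 mM library 1. Within set 1 the mean was 10.2 FPKM in control, 2.13 at 10 mM and 1.52 at 16 mM. The 3 hepatocyte markers found in the table summed to 1.6 to 3.31 FPKM over the control libraries, 1.26 to 4.28 over the 10 mM group and 1.22 to 2.55 over the 16 mM group. Of these ALB and APOA1 lay under 1 FPKM in every library, and SERPINA1 averaged 2.25 FPKM in control, 2.12 at 10 mM and 1.4 at 16 mM. The part of these markers in the result was not tested.

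Serine metabolism was represented by 3 enzymes, PHGDH and PSAT1 of serine synthesis and SHMT2, which acts on serine. With all libraries PSAT1 was called lower at both concentrations, PHGDH at the higher concentration, and SHMT2 at neither. PHGDH (gene ID 26227, chr1:119711934-119744218) catalyses the first step of serine synthesis from a glycolytic intermediate. Its FPKM in control was 284 at the lowest, 372 in the median and 430 at the highest, in 10 mM libraries 1 to 6 it was 142, 371, 366, 353, 268 and 276, and at 16 mM it was 318, 292, 293, 239 and 247. The groups overlapped in every comparison, and within each set every 16 mM library lay below every control and every 10 mM library. The log2 change at 16 mM was -0.36 ± 0.12, and the call ended when Control library 1, 2 or 3 or 16 mM library 4 or 5 was left out, with changes of -0.33 to -0.34. At 10 mM it was -0.19 ± 0.12, not called with or without library 1.

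PSAT1 (gene ID 29968, chr9:78297125-78335465) carries out the next step, the transamination that gives phosphoserine. Control libraries had 277 FPKM at the lowest, 372 in the median and 437 at the highest, in 10 mM libraries 1 to 6 it was 149, 244, 240, 232, 204 and 203, and at 16 mM it was 214, 210, 208, 202 and 200. No exposed library overlapped control, and the 16 mM libraries lay close to one another. The log2 change was -0.60 ± 0.11 at 10 mM and -0.76 ± 0.12 at 16 mM. SHMT2 (gene ID 6472, chr12:57229498-57234935) converts serine to glycine in mitochondria and loads folate with carbon units. In control it was at 195 FPKM at the lowest, 252 in the median and 290 at the highest, in 10 mM libraries 1 to 6 it was 240, 198, 203, 194, 194 and 177, and at 16 mM it was 199, 196, 200, 181 and 187. Controls 1 to 3 lay above every exposed library, and Controls 4 to 6 overlapped the exposed groups. Its log2 change was -0.05 ± 0.20 at 10 mM and -0.32 ± 0.21 at 16 mM, neither called, and without the 10 mM library 1 it was -0.33 ± 0.08 and -0.32 ± 0.08, both called.

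ASNS, asparagine synthetase (gene ID 440, chr7:97851677-97928441), makes asparagine from aspartate and is the textbook reporter of ATF4 in amino acid shortage. It was the only gene of the 10 not called in any comparison, with all libraries or under any alternative run. FPKM was 306, 294, 286, 189, 201 and 239 in control libraries 1 to 6, in 10 mM libraries 1 to 6 it was 162, 238, 230, 226, 203 and 197, and at 16 mM it was 237, 216, 228, 228 and 236. Every 16 mM value thus lay below Control libraries 1 to 3 and above Control libraries 4 and 5. In edgeR the change was -0.14 ± 0.12 at 10 mM and -0.11 ± 0.12 at 16 mM on the log2 scale. At 16 mM against control its 2 sets differed in sign, with a log2 ratio of mean FPKM of -0.38 in set 1 and 0.14 in set 2, where ranges overlapped.

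SLC3A2 (gene ID 6520, chr11:62856109-62888860) is the heavy chain that carries amino acid exchangers such as SLC7A5 and SLC7A11 to the plasma membrane. Its FPKM was 463, 434, 437, 299, 323 and 364 in control libraries 1 to 6 and 545, 580, 538, 535 and 531 at 16 mM, and every 16 mM library lay above every control library. At 10 mM libraries 2 to 6 lay at 333, 337, 337, 326 and 326, whereas library 1 lay at 812. In FPKM as deposited this was above every other library of the study. Divided by its own FPKM sum, library 1 lay within the control range of SLC3A2. On the scale of counts with TMM factors it lay above every control library. Its place against the 16 mM libraries was not taken on these other scales. The log2 change at 10 mM was 0.46 ± 0.34 with library 1 and -0.22 ± 0.08, of opposite sign and called, without it. At 16 mM it was 0.51 ± 0.36, not called, and 0.51 ± 0.08, called, without the 10 mM library 1, in a fit in which all groups share the estimate of the spread. Of its light chains, SLC7A11, the cystine and glutamate exchanger, averaged 30.1 FPKM in control, 16.3 at 10 mM and 27.7 at 16 mM, and SLC7A5, which carries large neutral amino acids, 264, 217 and 299.

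In FPKM, TRIB3 and CHAC1 were lower than control in all exposed libraries but the 10 mM library 1, within each set of close libraries. Divided by its own FPKM sum, that library too lay below every control library in both genes, and on the scale of counts with TMM factors it lay above every control library in both. TRIB3 (gene ID 57761, chr20:380760-399799) is a pseudokinase that binds ATF4 and dampens it. Its FPKM in control libraries 1 to 6 was 193, 200, 194, 74.0, 76.2 and 98.7, in 10 mM libraries 1 to 6 it was 113, 53.1, 56.2, 53.9, 48.1 and 45.9, and at 16 mM it was 83.8, 87.7, 82.3, 44.2 and 47.4. Within control the mean of set 1 was 2.36 times that of set 2, so the 16 mM libraries of set 1 overlapped the control libraries of set 2. The log2 change was -0.86 ± 0.37 at 10 mM and -0.99 ± 0.39 at 16 mM, neither called. Without the 10 mM library 1 both were called, at -1.41 ± 0.25 and -0.98 ± 0.25, and the 16 mM call also appeared without Control library 4 (-1.11) or 5 (-1.10).

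CHAC1 (gene ID 79094, chr15:40942076-40956518) degrades glutathione in the cytosol. Levels in control were 47.7 FPKM at the lowest, 52.7 in the median and 62.0 at the highest, in 10 mM libraries 1 to 6 it was 75.5, 25.8, 27.3, 25.6, 20.8 and 23.1, and at 16 mM it was 33.8, 33.7, 32.1, 10.7 and 11.3. The control libraries of the 2 sets were alike in CHAC1 (means 52.9 and 55.8), while at 16 mM the mean was 33.2 in set 1 and 11.0 in set 2. Its log2 change was -0.30 ± 0.45 at 10 mM and -1.17 ± 0.48 at 16 mM, neither called, and -1.14 ± 0.24 and -1.16 ± 0.24, both called, without the 10 mM library 1.

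VLDLR (gene ID 7436, chr9:2619998-2660056), a receptor for triglyceride-rich lipoproteins and for reelin, was lower in every exposed library than in any control library. In control its lowest level was 6.46 FPKM, its median 7.10 and its highest 7.94, in 10 mM libraries 1 to 6 it was 0.53, 5.17, 5.14, 5.34, 4.20 and 4.17, and at 16 mM it was 5.70, 5.10, 5.03, 2.33 and 2.66. As with CHAC1, the 2 sets were alike in control and apart at 16 mM, with means of 5.28 and 2.5. On the log2 scale VLDLR differed by -0.79 ± 0.29 at 10 mM and -0.79 ± 0.31 at 16 mM, neither called. Both were called without the 10 mM library 1 (-0.58 ± 0.17 and -0.78 ± 0.17), and the change at 16 mM also without 16 mM library 1 (-0.92).

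**Figure D2:**
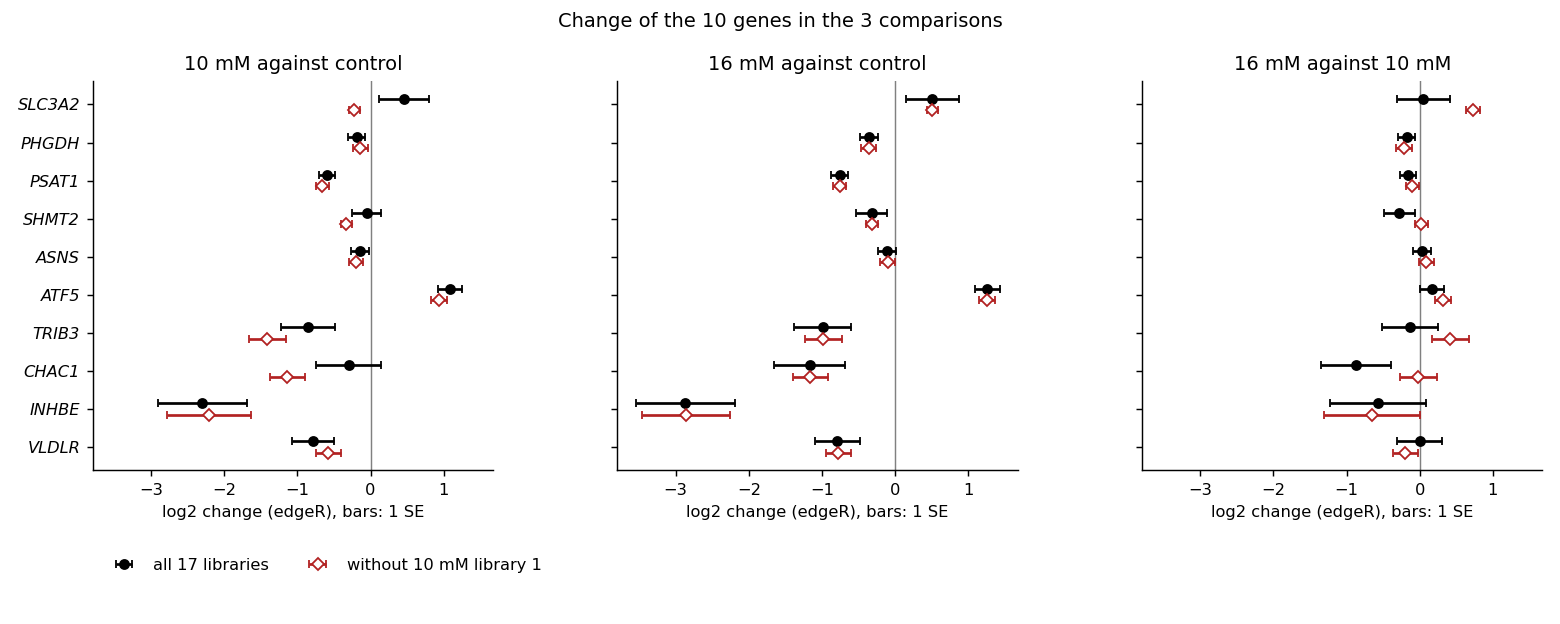
Log2 change (horizontal axes) of the 10 genes from edgeR in the 3 comparisons, with bars of 1 SE, for all 17 libraries and without the 10 mM library 1. SLC3A2 at 10 mM against control moves from 0.46 to -0.22 and CHAC1 from -0.30 to -1.14 when that library is left out, while ATF5, INHBE and PSAT1 keep their side of 0.

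Counting ranges of FPKM as deposited alone, control and 10 mM libraries did not overlap for 4 of the 10 genes, PSAT1, ATF5, INHBE and VLDLR, where 15.1% of all genes tested did not overlap. For ATF5 the 10 mM library 1 lay within the control range once FPKM was divided by the library sum. Without library 1, TRIB3 and CHAC1 joined these 4 genes, against a background of 29.1%. Control and 16 mM libraries did not overlap for 6 genes, SLC3A2, PSAT1, ATF5, CHAC1, INHBE and VLDLR, against 46.1% of all genes. The 2 exposed groups overlapped for all 10 genes (17.8% of all genes did not), and without the 10 mM library 1 SLC3A2 alone did not overlap (30.7% of all genes). The authors' deposited table gave a q-value under 0.05 for 3 of the 10 genes at 10 mM and 9 of the 10 at 16 mM against control, where 15.4% and 50.4% of genes with a q-value in that table were under it, and for none of the 10 between the concentrations, where 9.52% were.

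Where the 10 mM library 1 stood depended on the scale for several of the genes. Its values were set side by side on 3 scales: FPKM as deposited, FPKM divided by the library's own FPKM sum, and counts scaled by library size with TMM factors. SLC3A2, TRIB3 and CHAC1 lay above the other 5 libraries of the 10 mM group on every one of these scales, at 2.45, 2.19 and 3.08 times their mean in FPKM. Rescaled to the library's own sum the same ratios were 1.32, 1.18 and 1.66, and with TMM factors they were 4.6, 3.78 and 5.81. PHGDH and VLDLR lay below the other 5 on each scale, VLDLR at 0.11 times their mean in FPKM. PSAT1, SHMT2, ASNS and ATF5 changed sides between scales, and INHBE was below them or within their range. DDIT3, which encodes the stress factor CHOP, was at 496 FPKM in that library and at 23.1 to 39.0 in the other 5, and ATF4 at 969 against 385 to 396.

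**Figure D3:**
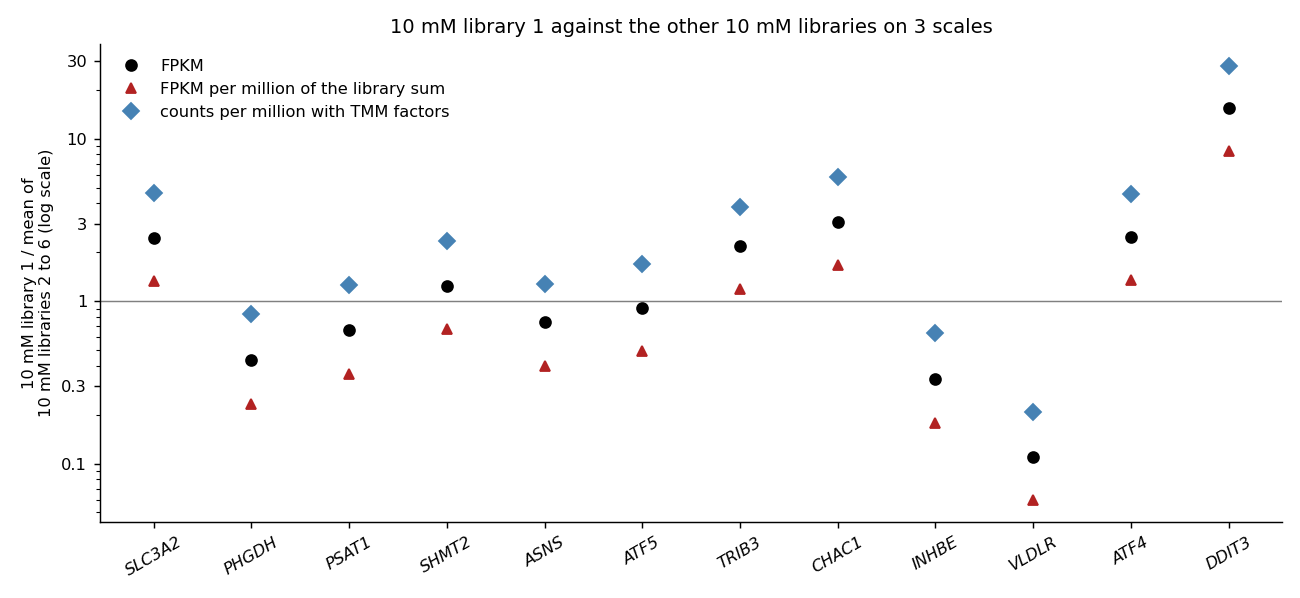
Ratio of the 10 mM library 1 to the mean of 10 mM libraries 2 to 6 (vertical axis, log scale) for the 10 genes, ATF4 and DDIT3, on 3 scales. SLC3A2, TRIB3, CHAC1, ATF4 and DDIT3 lie above 1 and PHGDH, INHBE and VLDLR below 1 on all 3 scales, and the other 4 genes cross 1.

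Between 16 and 10 mM edgeR called none of the 10 genes with all 17 libraries, where 14.1% of all genes tested were called. Nothing is read from this count either, since all 3 groups entered the choice of the genes. None reached an unadjusted p under 0.05 in edgeR or in DESeq2, and 2 did in limma on log2(FPKM + 1), none of them after adjustment. The log2 change of SLC3A2 was 0.05 ± 0.36. Without the 10 mM library 1 it was 0.73 ± 0.09, every 16 mM library lying above the remaining 5 at 10 mM. ATF5 differed by 0.17 ± 0.16 with all libraries and by 0.32 ± 0.11 without library 1, with overlapping ranges. SLC3A2 and ATF5 were thus 2 of 10 called without that library, beside 44.1% of all genes. PSAT1 (-0.16 ± 0.11), SHMT2 (-0.28 ± 0.21) and ASNS (0.03 ± 0.12) were not called with or without it, which does not show that the 2 concentrations were alike in these genes.

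Within the sets of close libraries the mean FPKM of 9 of the 10 genes was lower at 10 mM than in control in both sets and that of ATF5 higher in both, where 36.8% of all genes tested were lower and 34.2% higher in both. In set 2 the log2 ratio was only -0.01 for SLC3A2 and -0.07 for ASNS, with overlapping ranges. Against control at 16 mM 7 of the 10 were lower in both sets, SLC3A2 and ATF5 higher in both, and ASNS opposite, beside 42% lower and 38% higher of all genes. These are counts of signs, and nothing is read from them, because the choice of the genes used these contrasts. From 10 to 16 mM SLC3A2 and ATF5 were higher in both sets, with log2 ratios of mean FPKM of 0.72 and 0.71 for SLC3A2 and 0.36 and 0.24 for ATF5. PHGDH, PSAT1 and INHBE were lower in both sets, and SHMT2, ASNS, TRIB3, CHAC1 and VLDLR took opposite signs. In that comparison 37.7% of all genes were higher and 41.3% lower in both sets. In set 1 TRIB3 and CHAC1 lay higher at 16 mM than at 10 mM (means 84.6 against 54.4 and 33.2 against 26.2 FPKM), whereas in set 2 CHAC1 lay lower (11.0 against 21.9) and TRIB3 overlapped (45.8 against 47.0).

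**Figure D4:**
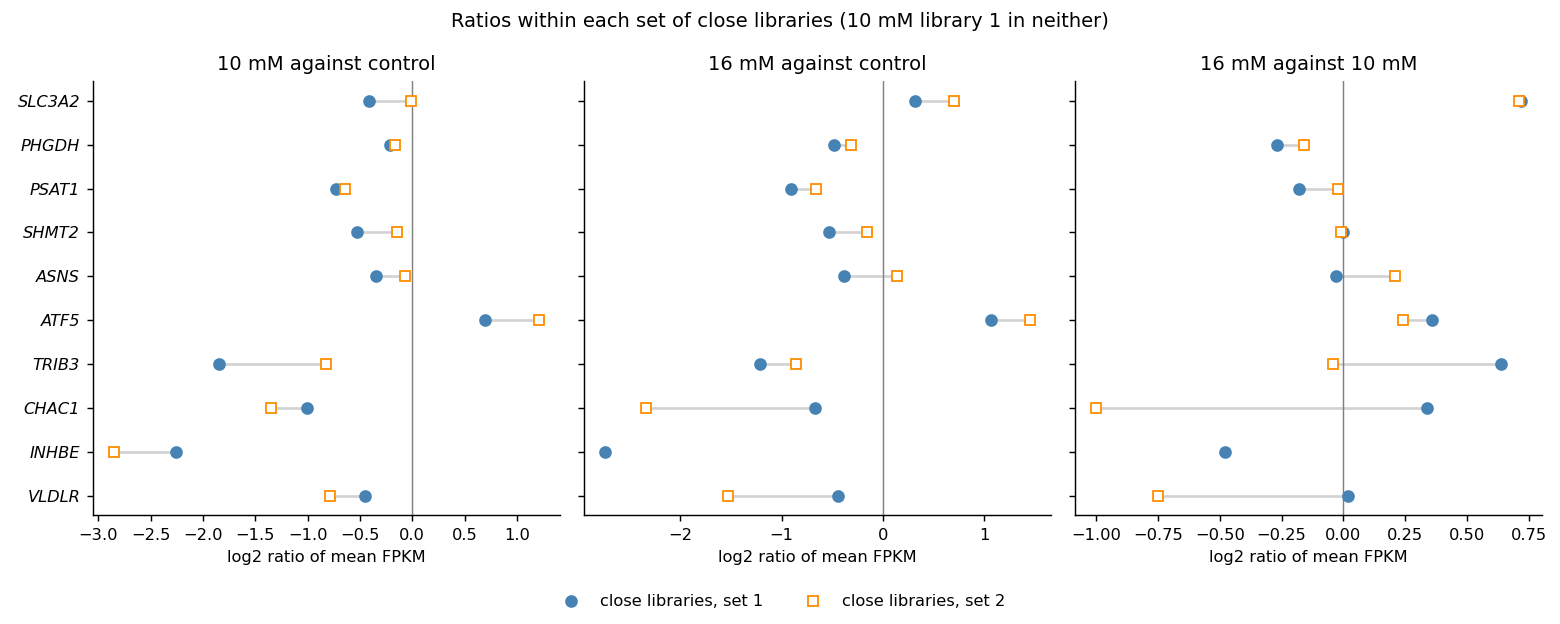
Log2 ratio of mean FPKM (horizontal axes) within each set of close libraries for the 10 genes, 1 panel per comparison, with axis ranges that differ between panels. In the panel of 10 mM against control ATF5 lies right of 0 and the other 9 genes left of 0 in both sets, and in the panel of 16 mM against 10 mM CHAC1 lies right of 0 in set 1 and left of 0 in set 2; the INHBE ratios of set 2 at 16 mM, which would rest on 4 and 1 counts, are not drawn.

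The rest of the pathway was read from 8 lists of 107 genes, of which 105 were in the table and 96 were tested. The calls among them count close libraries as replicates. Since the lists were chosen with earlier results of these data known, their calls and p-values are a description and no independent test. With the close libraries of each set summed, edgeR called 0 of 99 tested list genes in every comparison. In that fit the 10 mM library 1 stayed as its own unit, and 4 residual degrees of freedom were left. What the summing, that library and the few degrees of freedom each added to the loss of calls was not tested. ATF4 itself averaged 381 ± 19.3 FPKM in the 6 control libraries (SD), 488 ± 236 in the 6 exposed to 10 mM and 428 ± 64.5 in the 5 exposed to 16 mM. Without library 1 the 10 mM mean was 392 ± 4.77 (n = 5). ATF4 was not called at 10 mM (log2 change 0.71, edgeR adjusted p = 0.144) or at 16 mM (0.17, edgeR adjusted p = 0.753), and without the 10 mM library 1 it was 0.18 at 16 mM (edgeR adjusted p = 0.036). In set 1 its mean at 16 mM was 475 FPKM against 373 in control, and in set 2 it was 359 against 389. DDIT3 averaged 36.0 FPKM in control, 32.0 in 10 mM libraries 2 to 6 and 52.0 at 16 mM, and was called at 16 mM (0.52, edgeR adjusted p = 0.00414) only without the 10 mM library 1 (all libraries 0.51, adjusted p = 0.671). At 10 mM its change was 2.33 with all libraries (edgeR adjusted p = 0.0539) and -0.13 without library 1, and leaving out any of 10 mM libraries 2 to 6 gave an adjusted p of 0.0382 to 0.0402.

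Of 11 tested enzymes of serine, glycine and folate metabolism, 7 fell at 16 mM and none rose, where 35.3% of all genes were called. Among them were PSPH, which completes serine synthesis after PSAT1, SHMT1, the cytosolic counterpart of SHMT2, and CBS. CBS, which diverts homocysteine and serine to cystathionine, fell by 1.17 ± 0.13 on the log2 scale at 10 mM (edgeR adjusted p = 1.48e-05) and by 1.57 ± 0.14 at 16 mM (edgeR adjusted p = 3.53e-07), from 38.1 FPKM in control to 15.9 and 12.9. PSPH fell by 0.63 ± 0.12 at 10 mM and by 0.64 ± 0.13 at 16 mM (edgeR adjusted p = 0.00193 and 0.001). At 10 mM CBS and PSPH were the 2 enzymes of the list called, where 18.7% of all genes were called, and without library 1 there were 7, where 45.2% were. The direction matched that of PHGDH and PSAT1 in sign, and the median log2 change of the 11 was -0.55 at 16 mM beside 0.00 over all genes. With close libraries summed 0 of the 11 were called at 16 mM and 2 reached an unadjusted p under 0.05 in edgeR.

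Among 14 tested amino acid transporters 6 fell and none rose at 10 mM, where 18.7% of all genes were called, and 3 rose and 4 fell at 16 mM, where 35.3% were. SLC7A11 fell by 0.81 ± 0.16 at 10 mM (edgeR adjusted p = 0.00193) and was 0.09 below control at 16 mM without a call, and its difference between the concentrations was itself called (0.72 ± 0.16, edgeR adjusted p = 0.00977). The fall at 10 mM lay mainly in set 1, with a log2 ratio of mean FPKM of -1.15 there and of -0.22 with overlapping ranges in set 2, and from 10 to 16 mM the ratios were 0.86 and 0.28. SLC6A9, a glycine transporter, fell by 1.18 ± 0.18 and 1.32 ± 0.19 (edgeR adjusted p = 2.32e-04 and 4.37e-05). SLC7A1, which takes up arginine and lysine, fell by 0.82 ± 0.16 and 0.62 ± 0.17 (edgeR adjusted p = 0.00239 and 0.0094). SLC36A1, a lysosomal proton-coupled transporter, rose at 16 mM by 0.65 ± 0.08 (edgeR adjusted p = 7.57e-06). SLC7A5 differed between 16 and 10 mM by 0.38 ± 0.11 (edgeR adjusted p = 0.0341), a call that ended when 10 mM library 2, 3 or 4 or 16 mM library 2, 4 or 5 was left out (0.34 to 0.38).

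Of 13 tested enzymes of proline, aspartate, glutamate and arginine metabolism, 2 rose and 2 fell at 10 mM (18.7% of all genes called), and 3 rose and 2 fell at 16 mM, a share near the 35.3% of all genes. ASS1, which joins citrulline to aspartate for arginine synthesis, fell from 94.5 FPKM in control to 41.1 and 21.7, by 0.96 ± 0.26 and 2.10 ± 0.28 on the log2 scale (edgeR adjusted p = 0.0164 and 2.90e-05). GPT2, a mitochondrial alanine transaminase, fell by 0.70 ± 0.13 and 0.92 ± 0.14 (edgeR adjusted p = 0.00166 and 9.43e-05).

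Of 20 cytosolic tRNA synthetases, VARS1 and RARS1 rose and AARS1, CARS1 and IARS1 fell at 10 mM, and VARS1 rose and 6 fell at 16 mM. Of all genes 18.7% were called at 10 mM and 35.3% at 16 mM. IARS1 fell by 0.62 ± 0.12 at 10 mM (edgeR adjusted p = 0.00219) and AARS1 by 0.57 ± 0.11 at 16 mM (edgeR adjusted p = 8.50e-04), whereas VARS1 rose by 0.79 ± 0.18 and 0.81 ± 0.19 (edgeR adjusted p = 0.0059 and 0.00288). The 10 mM calls of RARS1 and CARS1 ended when any of several single libraries was left out, RARS1 with changes of 0.87 to 0.96 and adjusted p of 0.0573 to 0.0847 without Control 1, 2, 3 or 6. CARS1 was not called (adjusted p 0.0503 to 0.103) without Control 1, 2, 3, 5 or 6, without any of 10 mM 2 to 6, or without any 16 mM library. Without the 10 mM library 1, 4 synthetases rose and 12 fell at 10 mM, beside 45.2% of all genes called.

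Of 12 other stress effectors known as ATF4 targets, FGF21, ADM2 and CTH fell at 10 mM and none rose. At 16 mM DDIT4, NUPR1, FGF21 and ADM2 fell and TNFRSF10B, a death receptor, rose, where 35.3% of all genes were called, after 18.7% at 10 mM. FGF21, a secreted metabolic hormone, averaged 2.25 ± 1.54 FPKM over the control libraries (SD), 0.162 ± 0.0859 over those given 10 mM and 0.084 ± 0.091 over those given 16 mM, and fell by 3.60 ± 0.54 and 4.61 ± 0.64 on the log2 scale (edgeR adjusted p = 2.37e-04 and 3.50e-05). FGF21 lay near the floor in exposed cells, at 0.05 to 0.23 FPKM at 10 mM and 0 to 0.18 at 16 mM, which limits its fold. Over all alternatives its log2 change ran from -3.79 to -1.35 at 10 mM and from -5.06 to -1.45 at 16 mM. ADM2, a peptide of the calcitonin family, fell by 1.17 ± 0.25 and 1.17 ± 0.27 (edgeR adjusted p = 0.004 and 0.00258). The 16 mM calls of DDIT4 and NUPR1 ended without 16 mM library 4 or 5, DDIT4 also without Control 4, 5 or 6 (changes -1.01 to -1.08, adjusted p 0.062 to 0.0823) and NUPR1 without Control 2 or 3 (-1.05 to -1.14, adjusted p 0.0506 to 0.0573). CTH, which fell by 0.33 ± 0.10 at 10 mM (edgeR adjusted p = 0.0238), was not called without Control 1, 2 or 6 or 10 mM library 6 (-0.29 to -0.32, adjusted p 0.0512 to 0.0609).

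Upstream of ATF4, 3 of 11 tested eIF2 kinases, their regulators and phosphatase subunits rose and 3 fell at 16 mM, where 35.3% of all genes were called. IMPACT, an inhibitor of the kinase GCN2, fell by 0.43 ± 0.10 at 10 mM and by 0.87 ± 0.11 at 16 mM (edgeR adjusted p = 0.0062 and 8.62e-06). GCN1, the activator of the same kinase, rose by 0.64 ± 0.12 at 16 mM (edgeR adjusted p = 5.82e-04). DELE1 and OMA1, which relay mitochondrial stress to eIF2, fell by 0.89 ± 0.16 each at 16 mM (edgeR adjusted p = 3.07e-04 and 3.64e-04). These are mRNA levels, and phosphorylation of eIF2 was not measured. Among the 6 basic leucine zipper genes ATF3 rose at both concentrations (2.26 ± 0.57 and 1.58 ± 0.58, edgeR adjusted p = 0.0118 and 0.0432). The 16 mM call of ATF3 ended without any of Control 2 to 6 or any 16 mM library (adjusted p 0.0576 to 0.0837), and without the 10 mM library 1 the changes were 0.98 and 1.59, both called. CEBPG and JDP2 fell at 16 mM (-0.50 ± 0.19 and -0.67 ± 0.21, edgeR adjusted p = 0.0439 and 0.0224). The CEBPG call ended without Control 1, 2, 3 or 6, 10 mM library 2 or 3, or 16 mM library 4 or 5 (adjusted p 0.051 to 0.125), and the JDP2 call without 16 mM library 4 or 5 (0.0684 and 0.0674).

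**Figure D5:**
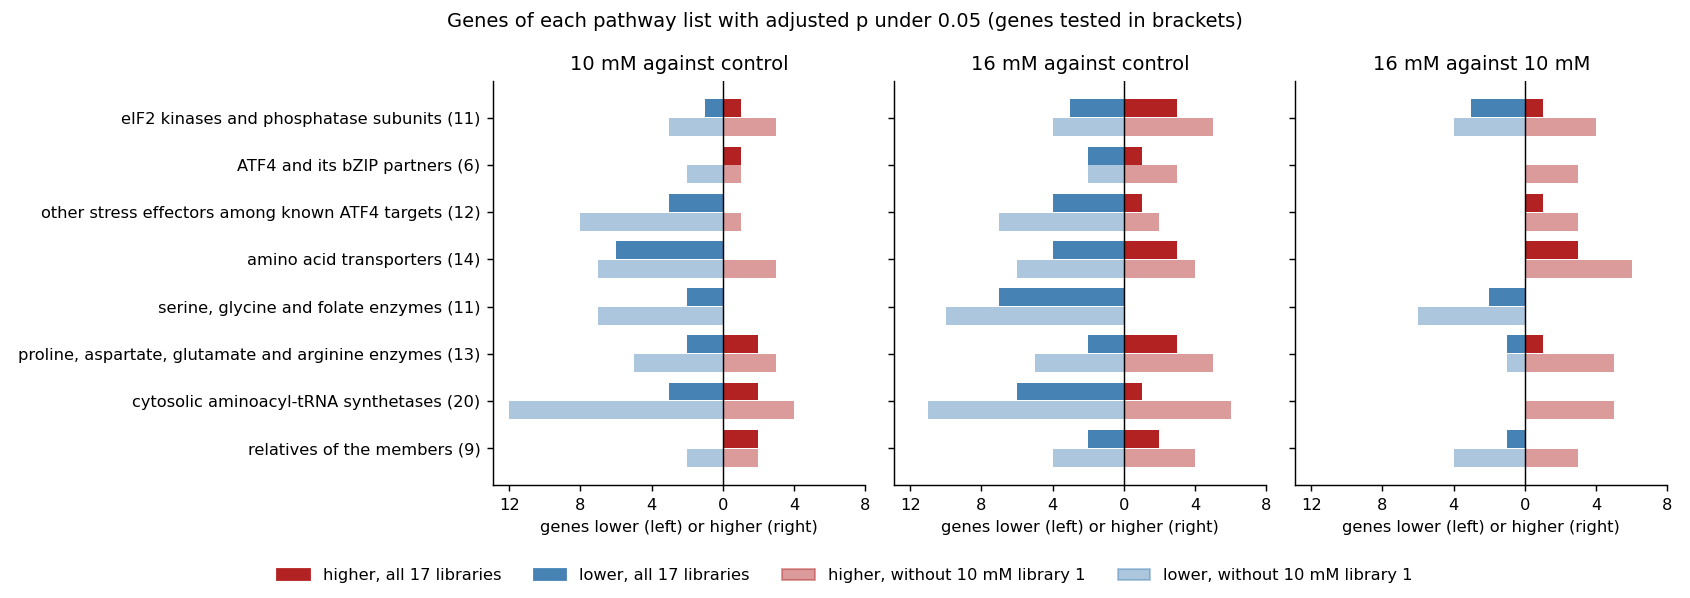
Number of genes of each pathway list called lower (left) or higher (right) in the 3 comparisons, with all 17 libraries (dark) and without the 10 mM library 1 (light), tested genes in brackets. Of the serine, glycine and folate enzymes 7 were lower and none higher at 16 mM against control with all libraries.

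Of 9 tested relatives of the 10 genes, 2 rose and 2 fell at 16 mM, where 35.3% of all genes were called. LRP8, a reelin receptor of the same family as VLDLR, rose while VLDLR was lower, by 1.07 ± 0.28 at 10 mM and 1.43 ± 0.29 at 16 mM (edgeR adjusted p = 0.0143 and 0.00119). In FPKM the 10 mM library 1 went the other way, with LRP8 at 1.71 against 4.73 to 7.57 in control. The 10 mM libraries 2 to 6 lay at 13.9 to 18. LRP1 fell by 1.62 ± 0.37 at 16 mM (edgeR adjusted p = 0.0027). INHA, the inhibin alpha subunit, was at 2.39 FPKM in control and 1.08 at 16 mM and was called there (-1.15 ± 0.38, edgeR adjusted p = 0.0249), a call that ended without 16 mM library 4 or 5 (-0.97 and -1.03).

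SHMT2 and INHBE lie on chromosome 12 with 220 kb between them, and MARS1, the methionyl-tRNA synthetase, follows INHBE after 28.9 kb (GRCh38.p13, coordinates of the deposited table). DDIT3 begins 57.4 kb beyond INHBE and overlaps the end of MARS1. Reads in that overlap could not be told apart, as no source used here gives the strand setting of the counting. Across this stretch INHBE was lower in all exposed libraries, MARS1 averaged 179 FPKM in control, 124 at 10 mM and 129 at 16 mM, and DDIT3 was highest in the 10 mM library 1.

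The nearest profiles over all 17 libraries were sought among 11323 other genes by the root mean square distance between centred log2(FPKM + 1) values, as a description without a test. For ATF5, whose own profile spanned 1.36, the nearest were SLC5A6 (0.09), MLKL (0.12) and SNRPA1 (0.15). For INHBE, with a span of 3.61, they were C4B (0.30), SNTB1 (0.38) and IL20RB (0.39). For ASNS, with a span of 0.92, they were ELMOD3, REPS1 and GGNBP2, at 0.09 each.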

How the data were processed

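RNA-seq of 17 BEAS-2B libraries was used from the table that the authors deposited. Per the submitters' processing notes, which give no roles, the tools were RSEM 1.3.1, HISAT, DESeq2 1.4.5 and Bowtie2 2.3.4.3, and the build was GRCh38.p13. Per the file headers the table holds, for each gene and library, read counts (deposited estimated counts, 13.1% of them not whole) and FPKM values, and for each comparison the authors' log2 fold change and q-value. All per-sample columns matched a sample by title. The 10 genes and the pathway lists were chosen with earlier results of these data known.

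Expected counts were rounded and fitted with edgeR 4.0.16 in R 4.3.3 (quasi-likelihood test, TMM factors, filterByExpr, all 17 libraries, no covariates, Benjamini-Hochberg adjustment over 12564 genes). The SE of a log2 change is its size divided by the square root of F. Levels are FPKM, with SD over libraries. Groups were taken from the labels. The script was tested on simulated counts. Named genes were the 10, ATF4 and DDIT3, up to 3 called genes of at least 1 FPKM per list and comparison with the largest change, and the 3 nearest profiles of ATF5, INHBE and ASNS; other list genes enter counts only, and some genes that this rule names are not reported here. DESeq2 1.42.0 and limma 3.58.1 (log2(FPKM + 1), FPKM of at least 1 in 5 libraries) were alternatives. Sums over, and a block for, the sets of close libraries were also run, the block chosen after seeing the data. The sets of each group were read from chi-square distances of counts. These were taken only between libraries of the same group, so they do not show which sets match across groups. The 14 pairs of a group within a set gave 1.74 to 12.1 per gene and 26 other pairs 21.5 to 652. All lay above sampling noise, so no pair was merged as a repeat deposit. This does not show that close libraries are independent, and results with them summed are given.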

Additional observations from a re-analysis of the deposited data

Results flagged for a closer look

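In 30 groups of 5 or 6 libraries, 1 for each of the 10 genes and each concentration, a library set far from the rest of its group by Dixon's criterion was found 5 times, where chance gives about 1 in 20 groups. Of these, 4 concerned the 10 mM library 1. SLC3A2 was at 812 FPKM there, against 326 to 337 in the other 10 mM libraries, TRIB3 at 113 against 45.9 to 56.2, CHAC1 at 75.5 against 20.8 to 27.3, and VLDLR at 0.53 against 4.17 to 5.34. The other was SLC3A2 in 16 mM library 2, at 580 FPKM against 531 to 545 in the other 4.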

How the results depend on the processing

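Over 28 alternatives per comparison, the 10 genes kept their side of the threshold in 256 of 279 values at 10 mM against control, 229 of 279 at 16 mM against control and 270 of 279 at 16 mM against 10 mM; 3, 12 and 0 calls were lost and 18, 38 and 8 gained. Of the values that kept their side, 6, 0 and 30 were uncalled and had the other sign, as had 68 uncalled values of the other named genes. ASNS was called in none. Leaving out 1 library at a time gave 3 to 8, 3 to 9 and 0 to 2 of the 10 genes, 18 to 63, 34 to 78 and 8 to 44 of the list genes (25, 44 and 13 with all libraries), and 1633 to 5670, 3559 to 8271 and 808 to 5537 of all genes (2351, 4439 and 1777 with all), the upper end being without the 10 mM library 1 each time.

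Fitting only the groups compared gave 16, 78 and 6 list genes, 9 of the 10 genes at 16 mM against control, and 1530, 7979 and 569 of all genes; DESeq2 gave 7 of the 10 at 16 mM. Summing close libraries, with the 10 mM library 1 kept as its own unit, leaves 4 residual degrees of freedom. It gave 0 of the 10 genes, 0 list genes and 0 of 13525 genes in every comparison by edgeR, with 738, 1288 and 457 at an unadjusted p under 0.05. The other tools were not run on the sums, and no summed fit left that library out. A block for the sets of close libraries without the 10 mM library 1, chosen after seeing the data, gave 9, 9 and 4 of the 10 genes, 72, 84 and 57 list genes, and 7223, 9284 and 7229 of all genes. The libraries share replicate numbers, and whether the numbers pair them could not be settled. Deviations of same-numbered libraries correlated by more than 0.1 across genes in 11 of 15 pairs, and over all pairs the range was -0.39 to 0.414. Of 15 libraries, 3 matched their own number best, a hint from the data and not from the design. Close libraries of a set resemble one another, so this check cannot exclude pairing. With the replicate number as a block the counts were 4, 6 and 0 of the 10 genes, 21, 44 and 11 list genes, and 1824, 4153 and 1304 of all genes. The replicate block without the 10 mM library 1 gave 7, 9 and 3 of the 10, 60, 80 and 49 list genes, and 5653, 8506 and 5881 of all genes.

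Called values that turned in sign, or called signs opposite to an uncalled value, were those of SLC3A2 at 10 mM against control (-0.22 without library 1 and -0.22 with the set block; range -0.22 to 0.57 leaving out 1 library at a time), and at 16 mM against 10 mM those of TRIB3 (0.36, set block), DDIT3 (-2.07 to 0.65 leaving out 1 library at a time, with 0.65 without library 1, 0.65 set block, 0.56 replicate block without library 1), ATF3 (-0.91 to 0.60 leaving out 1 at a time, 0.64 set block, 0.49 replicate block without library 1) and RARS1 (0.24 set block, 0.32 replicate block without library 1). The cause was not tested. Low counts limit INHBE at 16 mM, with 4 and 1 counts in libraries 4 and 5. Low levels also limit FGF21, at 0.23 FPKM or below in every exposed library.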
